A study of Homo sapiens with 5 samples.

Results

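Neural induction of human embryonic stem cells over the opening 5 days of GnRH neuron differentiation was examined in 3432 single cells, of 44007 barcodes deposited for the series. The cells were wild-type WA09, an established human embryonic stem cell line. D0 was the undifferentiated culture, grown on Matrigel in mTeSR1. D5_dSMADi was the culture after 5 days of dual SMAD inhibition (dSMADi) in N2B27 medium without the tankyrase inhibitor XAV939. In dSMADi, dorsomorphin blocks type I receptors of the BMP pathway and SB431542 blocks those of the TGFβ, ACTIVIN and NODAL pathway. Both conditions were dissociated with Accutase, tagged with lipid-anchored oligonucleotides, pooled with D5_XAV939, D10_dSMADi and D10_XAV939 and run through 1 droplet reaction of a 3′ kit. Of 1292 D0 barcodes, 1009 were kept, which had at least 30000 unique molecular identifiers (UMIs), at least 5000 genes and under 10% of UMIs from mitochondrially encoded genes. Of 2480 D5_dSMADi barcodes, 2423 were kept, with at least 10000 UMIs, at least 3000 genes and the same mitochondrial limit. No barcode was shared between the files. Each condition was 1 culture, told apart by its tag within the pooled library. The comparison therefore has no replicate and no test, and the 95% intervals given cover counting error only. The inhibitors, the medium and the days in culture changed together, and their effects cannot be told apart.

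Pluripotent stem cells of the primed, epiblast-like kind keep themselves undifferentiated with a network around POU5F1 (OCT4), NANOG and SOX2, which NODAL or ACTIVIN and FGF signals sustain. When SMAD signalling is blocked, such cells take on the fate of the anterior neural plate, the sheet of cells that gives rise to the forebrain, eye and hypothalamus. PAX6, LHX2, OTX2, SIX3 and LHX5 are transcription factors of that territory. E-cadherin (CDH1) is replaced by N-cadherin (CDH2) as the neural plate forms.

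Summed over cells, the kept cells held 75923200 UMIs at D0 and 80312042 at D5_dSMADi. The median cell had 69455 UMIs on 8354 genes at D0 and 28793 UMIs on 5524 genes at D5_dSMADi. Levels are therefore given as CPM, in which the UMIs of a gene are scaled to all gene UMIs of the condition, and shares of cells after each cell was thinned to 10000 UMIs. On a scale of UMIs per cell every log2 ratio would be 1.18 lower, and 6596 of the 10223 genes compared below would be at least 2-fold lower and 177 higher. That shift depends in part on the cell limits. The mean D0 cell had 75246 UMIs under its own limits and 70341 under those of D5_dSMADi, against 33146 at D5_dSMADi. The pool is labelled as neural progenitor as a whole. Against that label, all 1009 D0 cells had at least 2 of 8 markers of undifferentiated cells. So did 96.2% of D5_dSMADi and 90.6% of D10_dSMADi cells, so that having 2 of these markers did not separate the days. The summed level of the 8 was 5871 CPM at D0 and 920 CPM at D5_dSMADi, where LIN28A made up 527 CPM of it. Of D0 cells, 34.1% had at least 2 of 10 neural progenitor markers, compared with 98.9% of D5_dSMADi cells. The tag of the assigned condition was the highest in all barcodes of both conditions. In 32 of the kept D0 cells and 99 of the kept D5_dSMADi cells, however, that tag held under 90% of the tag UMIs. The 32 D0 cells had 28.5 CPM of PAX6, against 5.02 CPM in the other 977, and 440 CPM of DLK1 against 81.5. Without the mixed-tag cells of both days, the log2 ratios of 217 named genes moved by at most 0.38, and all 134 past 2-fold remained past it. PAX6, NR2F2, SIX3 and IGFBP5 are given both ways. Since the 5 conditions shared 1 droplet reaction, free RNA from D0 cells could be counted in any of them. D10_dSMADi, with 2647 kept cells, is given beside D5_dSMADi for that reason. Free RNA from the later conditions could likewise be counted in D0 cells. Its part in the low D0 levels of genes that were higher at D5_dSMADi was not tested.

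Of 10223 genes with a mean of at least 5 CPM over both conditions, 824 (8.06%) were at least 2-fold higher at D5_dSMADi and 1671 (16.3%) were at least 2-fold lower. The median log2 ratio of all 10223 genes was -0.11. Without ribosomal protein and mitochondrially encoded genes in the total, the counts were 1162 higher and 1330 lower. Genes that reached 50 CPM in either condition were ranked by ratio. The 15 furthest below were AC009446.1, LINC00678, NANOG, TDGF1, FOXD3-AS1, AP000459.2, FLT1, LNCPRESS1, MT1G, MT1H, CLDN7, CDH1, POLR3G, TRIML2 and MT1M. The 15 furthest above were WLS, LIX1, NR2F2, IGFBP5, LHX5, ZFHX4, LHX5-AS1, ZEB2, PAX6, CA4, SOX21, SMOC1, GREB1L, RAX and LRP2. At the lower end stood pluripotency transcripts, epithelial adhesion genes and metallothioneins, and 6 of the 15 at the upper end were transcription factors of the forebrain and neural plate list. The lists were chosen with earlier results of these data known, so this overlap is not independent evidence.

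**Figure D1:**
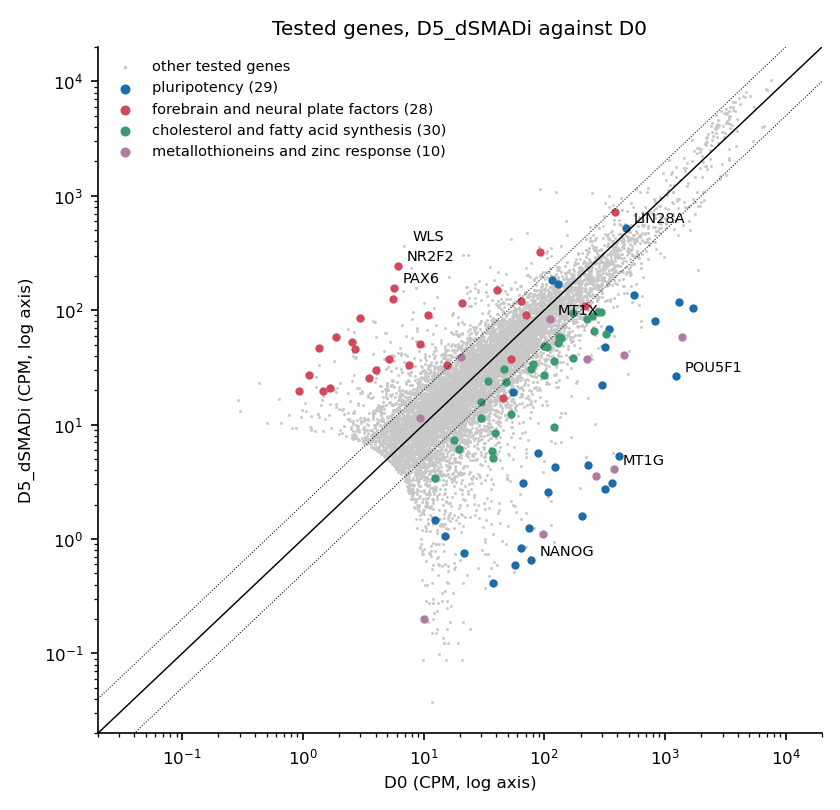
Level at D5_dSMADi (vertical, CPM, log axis) against level at D0 (horizontal, CPM, log axis) for each of the 10223 tested genes, with the solid line at equal levels and dotted lines at 2-fold. Coloured points are members of 4 gene lists. Pluripotency genes other than LIN28A, LIN28B and SALL4 lie below the lower dotted line, and 22 of 28 forebrain and neural plate factors lie above the upper one.

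The pluripotency network was lower at D5_dSMADi almost throughout. Of 29 tested pluripotency genes, 26 (89.7%) were at least 2-fold lower and 0 at least 2-fold higher, beside 16.3% and 8.06% of all genes. The median log2 ratio of the 29 pluripotency genes was -4.41. Several of these genes were chosen by earlier work on such cultures, so the list is not independent evidence of its direction. POU5F1 (chr6:31164337-31180731, GRCh38), the core factor of the network, was at 1244 CPM (1236 to 1252) at D0 and 26.5 CPM (25.4 to 27.6) at D5_dSMADi, which was 47.0-fold lower. NANOG (chr12:7787794-7799146), its partner, was at 78.1 CPM and 0.660 CPM, a log2 ratio of -6.89 (-7.31 to -6.50). TDGF1, the NODAL co-receptor CRIPTO, was at 366 and 3.098 CPM. These levels differed by far more than counting error.

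How much of each transcript was left at D5_dSMADi differed between members. NANOG stood at 0.845% of its D0 level, TDGF1 at 0.846%, the antisense transcript FOXD3-AS1 at 0.865% and the long noncoding RNA LINC00678 at 0.775%. In D10_dSMADi cells the same genes stood at 1.35%, 1.01%, 0.892% and 0.877%, so the D5_dSMADi values were no higher than those of the later cells. The part that free RNA had in these low levels was not tested. POU5F1 was at 2.13% of its D0 level at D5_dSMADi and at 1.23% at D10_dSMADi. L1TD1, an RNA-binding protein of pluripotent cells, was at 1722 CPM at D0 and 105 CPM at D5_dSMADi, 6.08% of D0, compared with 2.44% at D10_dSMADi. TERF1, a telomere-binding protein, was at 1312 and 118 CPM, or 9.02%. DNMT3B, a de novo DNA methyltransferase, was at 319 and 47.5 CPM, or 14.9%. USP44, a deubiquitinase, was at 344 and 68.0 CPM, and DPPA4, a chromatin-associated protein, at 555 and 136 CPM, which left 19.8% and 24.5%. At D10_dSMADi, TERF1 stood at 8.94%, USP44 at 41.7% and DPPA4 at 21.4% of D0. L1TD1, TERF1, DNMT3B, USP44 and DPPA4 thus remained well above the share that NANOG and TDGF1 showed in the same cells.

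The 3 pluripotency genes that were not 2-fold lower were LIN28A, LIN28B and SALL4. LIN28A, which blocks maturation of let-7 microRNAs, was at 473 CPM at D0 and 527 CPM at D5_dSMADi. LIN28B, its paralogue, was at 130 and 169 CPM. SALL4, a zinc finger factor, was at 116 and 183 CPM. On the scale of UMIs per cell all 3 would be lower at D5_dSMADi. Of the 13 tested genes of the LIN28 and let-7 axis, 2 (15.4%, near the 16.3% of all genes) were at least 2-fold lower and 0 higher. The 2 were MYC (34.8 and 10.3 CPM) and MYCN (55.6 and 19.1 CPM). In UMIs per cell all 13 were below their D0 level, 11 of them at least 2-fold, as were 6596 of all 10223 genes. SOX2, which pluripotent and neural cells share, was at 382 CPM at D0 and 717 CPM at D5_dSMADi, a log2 ratio of 0.91 in CPM and of -0.27 in UMIs per cell. Of 10 markers of naive pluripotency, none reached a mean of 5 CPM, and their summed level was 7.92 CPM at D0.

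**Figure D2:**
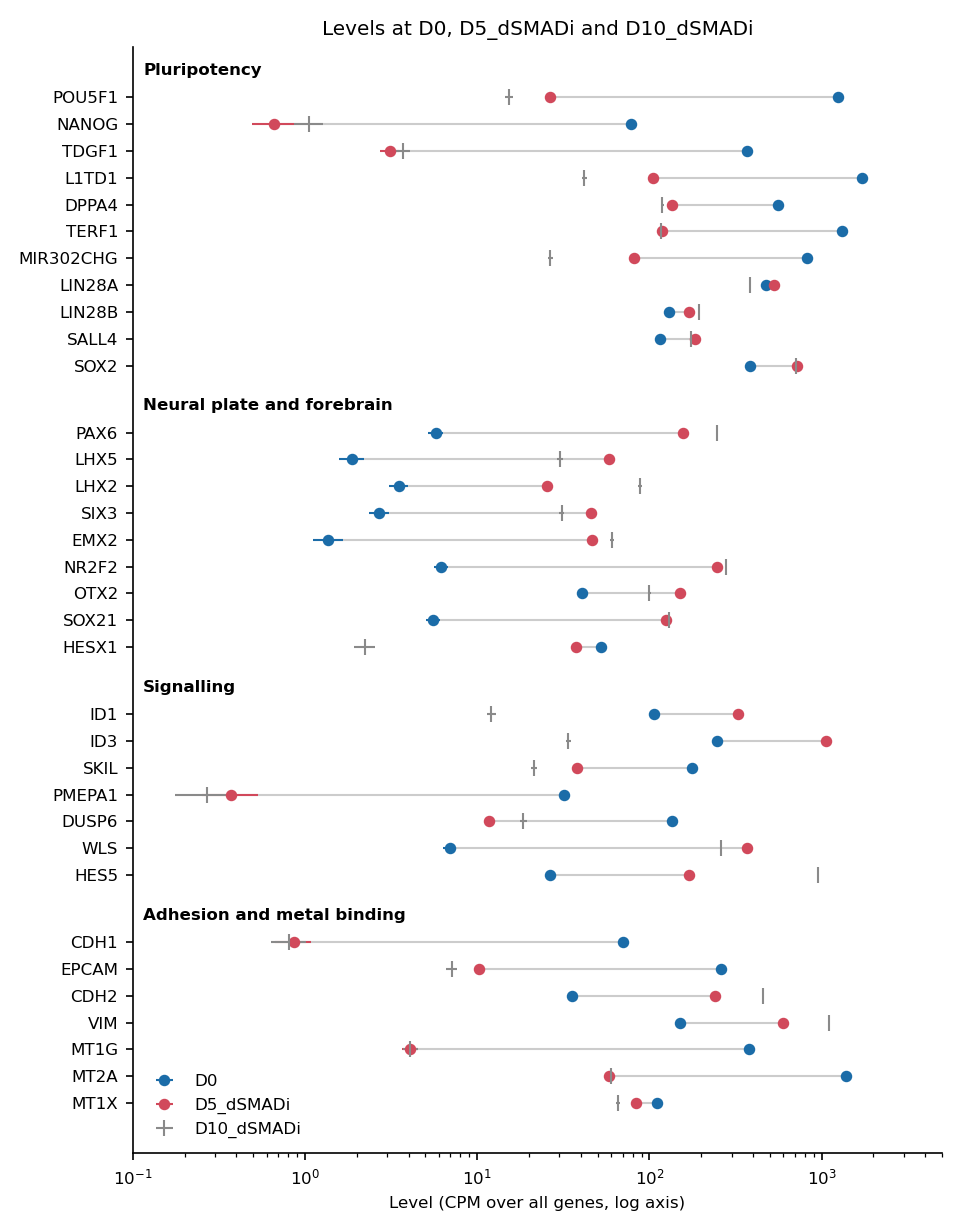
Levels (horizontal, CPM over all genes, log axis) of 34 genes at D0 (blue), D5_dSMADi (red) and D10_dSMADi (grey ticks), with 95% Poisson intervals where wider than the symbol. POU5F1 moves from 1244 to 26.5 CPM and PAX6 from 5.73 to 158 CPM, while LIN28A is at 473 CPM at D0 and 527 CPM at D5_dSMADi.

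One of the pluripotency transcripts, MIR302CHG (chr4:112646476-112650051, minus strand), hosts the microRNA cluster of miR-302 and its neighbour, whose microRNAs are abundant in pluripotent stem cells. The host RNA was at 820 CPM (814 to 827) at D0, 80.9 CPM (79.0 to 82.9) at D5_dSMADi and 26.6 CPM at D10_dSMADi. The microRNAs themselves are not measured by this assay. The mature 3p sequences that the host carries are shown because they make up 2 seed families, with the seed (bases 2 to 8) in capitals. They are taken from RefSeq (GRCh38.p14).
hsa-miR-302a-3p: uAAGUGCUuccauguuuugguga
hsa-miR-302b-3p: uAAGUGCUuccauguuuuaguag
hsa-miR-302c-3p: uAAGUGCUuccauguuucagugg
hsa-miR-302d-3p: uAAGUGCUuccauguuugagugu
hsa-miR-367-3p: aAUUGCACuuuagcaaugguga
The 4 miR-302 3p sequences share the seed AAGUGCU, and the last sequence carries AUUGCAC. All 5 lie on chromosome 4 between 112647877 and 112648511, within the host transcript.

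Cell by cell, the change in the pluripotency genes ran through the whole culture. After thinning to 10000 UMIs, the summed UMIs of POU5F1, NANOG, L1TD1, DPPA4 and TDGF1 had a median of 39 at D0 and 2 at D5_dSMADi. The highest of the 2423 D5_dSMADi cells had 20, and the 1st percentile of D0 cells was 23. Of the D0 cells, 4 had no more than that highest D5_dSMADi cell, and 1 of them remained among the 977 cells with at least 90% of their own tag. No D5_dSMADi cell therefore reached the D0 range above its 1st percentile. The summed UMIs of PAX6, LHX2, OTX2, SIX3 and LHX5 had a median of 0 at D0, 4 at D5_dSMADi and 5 at D10_dSMADi, and these low counts overlapped between the days.

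**Figure D3:**
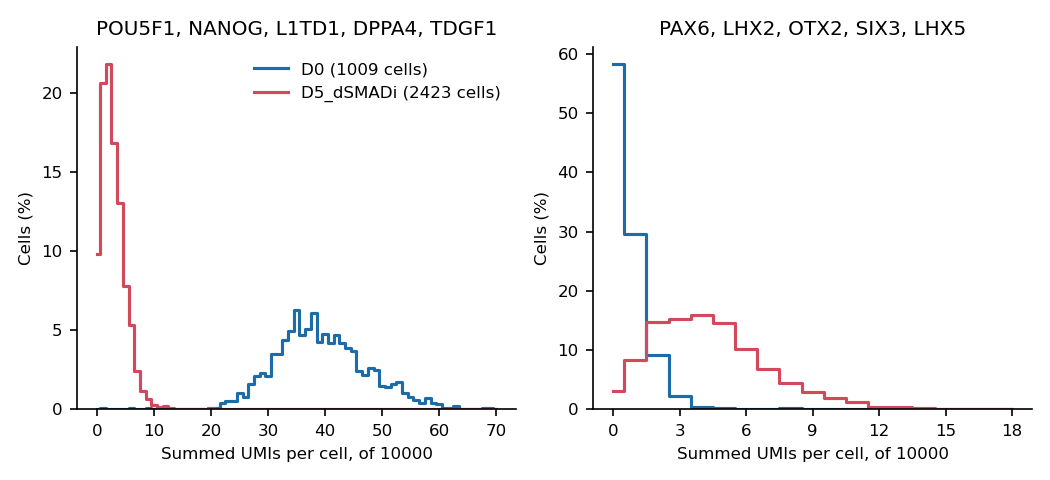
Share of cells (vertical, %) by their summed UMIs of 5 pluripotency genes (left) and 5 neural genes (right), each cell thinned to 10000 UMIs, for 1009 D0 cells and 2423 D5_dSMADi cells. The pluripotency sums form separate peaks with medians of 39 and 2, and the neural sums overlap with medians of 0 and 4.

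At least 3 UMIs of both gene sets were found in 28 D0 cells (2.78%, 1.85% to 3.99%) and 856 D5_dSMADi cells (35.3%, 33.4% to 37.3%). In D10_dSMADi cells the share was 22.3%. Among cells with at least 90% of their own tag the shares were 2.35% at D0 and 35.5% at D5_dSMADi. With at least 2 UMIs of each set, in all kept cells, the shares were 11.99% and 61.9%. In D5_dSMADi cells with at least 90% of their own tag, DPPA4 was at 136 CPM and L1TD1 at 105 CPM, against 26.2 CPM of POU5F1. A D5_dSMADi cell could thus reach 3 pluripotency UMIs without POU5F1 or NANOG. In such D0 cells OTX2 was at 40.3 CPM, against 5.02 CPM of PAX6. Taken singly, the pluripotency genes reached 3 UMIs in 99.9% of D0, 47.8% of D5_dSMADi and 27.3% of D10_dSMADi cells. The neural genes did so in 2.87%, 74.0% and 80.8%. At the later days such shares overlap in many cells even if the sets are unrelated, and a link between the sets was not tested. Single genes differed in their order over the days. POU5F1 had a UMI in 99.9% of D0 cells, 24.5% of D5_dSMADi cells and 13.8% of D10_dSMADi cells. NANOG had one in 51.4%, 0.660% and 1.10%, and its share at D5_dSMADi was not above that of the later cells. DPPA4 had one in 98.8%, 73.2% and 65.6%, and LIN28A in 97.5%, 97.6% and 94.5%. PAX6 had one in 4.46%, 73.1% and 86.8%, and SIX3 in 2.87%, 33.6% and 24.6%. Without thinning, POU5F1 had a UMI in 100% of D0 cells and 54.6% of D5_dSMADi cells, and PAX6 in 30.4% and 94.8%.

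**Figure D4:**
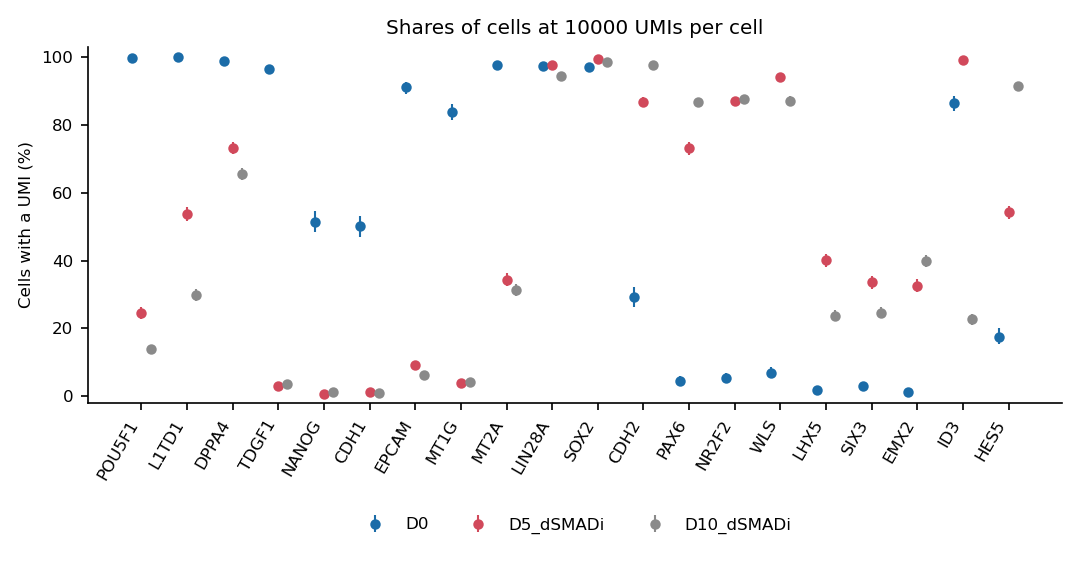
Share of cells with at least 1 UMI (vertical, %) of 20 genes at D0 (blue), D5_dSMADi (red) and D10_dSMADi (grey), each cell thinned to 10000 UMIs, with 95% Clopper-Pearson intervals. NANOG and CDH1 are near 0 at both later days, LIN28A and SOX2 are above 94% at all 3, and PAX6, NR2F2 and WLS are below 7% at D0 and above 73% at D5_dSMADi.

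Transcription factors of the neural plate and forebrain were higher at D5_dSMADi. Of 28 tested members, 22 (78.6%) were at least 2-fold higher and 1 (3.57%) at least 2-fold lower, beside 8.06% and 16.3% of all genes. The median log2 ratio of the 28 was 2.87. In UMIs per cell, 18 were at least 2-fold higher and 3 lower, beside 177 and 6596 of all 10223 genes. NR2F2 (COUP-TFII, chr15:96325938-96340263), a nuclear receptor, was at 6.16 CPM (5.62 to 6.75) at D0 and 246 CPM (242 to 249) at D5_dSMADi. EMX2, a homeobox factor of the dorsal telencephalon, was at 1.37 and 46.5 CPM. LHX5 (chr12:113462033-113472280), a LIM homeobox factor of the anterior neural plate, was at 1.87 and 58.5 CPM. These 3 factors were all under 7 CPM at D0, and the part of free RNA in those D0 levels was not tested. ZEB2, which binds SMADs and represses CDH1, was at 2.96 and 85.1 CPM. PAX6 (chr11:31784779-31817961, minus strand), a paired box factor of the neuroectoderm, was at 5.73 CPM (5.20 to 6.29) at D0 and 158 CPM (155 to 160) at D5_dSMADi, 27.5-fold higher. Without the 32 D0 cells of mixed tags the D0 level of PAX6 was 5.02 CPM and the log2 ratio moved from 4.78 to 4.97. The same step moved NR2F2 from 5.32 to 5.59, SIX3 from 4.08 to 4.39 and IGFBP5, an IGF-binding protein, from 5.23 to 5.605.

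Factors of the eye field and hypothalamus were among them. SIX3, which defines the anterior tip of the neural plate, was at 2.70 CPM at D0 and 45.7 CPM at D5_dSMADi, and RAX, the eye field and hypothalamic homeobox factor, at 2.56 and 52.7 CPM. FEZF1, a forebrain zinc finger repressor, was at 20.8 and 115 CPM, and LHX2, an eye field and cortical factor, at 3.50 and 25.3 CPM. OTX2, which both epiblast and anterior neural tissue use, was at 40.6 CPM already at D0 and 150 CPM at D5_dSMADi. The SOXB1 factor SOX3 was at 15.8 and 33.2 CPM, a difference that turned to -0.11 on the log2 scale in UMIs per cell, and SOX21 at 5.56 and 125 CPM. The 3 members below their D0 level were HESX1, an anterior homeobox repressor (52.6 and 37.6 CPM), ZIC2 (216 and 110 CPM) and ZIC5 (45.4 and 17.0 CPM). SOX1, a neural factor, did not reach a mean of 5 CPM. It was at 0.830 CPM at D0, 3.41 CPM at D5_dSMADi and 59.9 CPM at D10_dSMADi.

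Of 25 caudal neural factors, among them HOX, CDX, EN and IRX genes, 1 reached the minimum level, IRX2 at 10.0 CPM at D0 and 17.9 CPM at D5_dSMADi. IRX2 passed 2-fold as higher without ribosomal protein and mitochondrially encoded genes in the total. With no minimum but more than 3 UMIs in either condition, 5 caudal factors were at least 2-fold higher and 3 lower. Of 9 tested genes of neurogenesis and neurons, 2 were at least 2-fold higher and 3 at least 2-fold lower in CPM, beside 8.06% and 16.3% of all genes. In UMIs per cell the counts were 1 and 6, beside 177 and 6596 of all 10223 genes. With no minimum but more than 3 UMIs in either condition, 9 members were at least 2-fold higher in CPM, and the count of lower ones changed little. TAGLN3 (4.15 and 27.5 CPM) and MAP2, a dendritic microtubule protein (15.2 and 45.8 CPM), were higher. TUBB3, a neuronal β-tubulin, was lower (204 and 74.8 CPM), as were GAP43 (19.1 and 6.52 CPM) and NEFM, a neurofilament subunit (31.6 and 2.05 CPM). At least 2 of 6 neuron markers were found in 33.0% of D0 cells and 6.97% of D5_dSMADi cells, and the summed level of the 6 was 255 and 91.6 CPM, of which TUBB3 made up the largest part at both days.

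Of 13 tested genes of NODAL and ACTIVIN signalling, 4 (30.8%) were at least 2-fold lower and 3 (23.1%) at least 2-fold higher. Over all genes the shares were 16.3% and 8.06%. The median log2 ratio of the 13 was 0.06. The 4 lower ones were PMEPA1 (32.1 and 0.374 CPM) and SMAD7 (22.9 and 1.98 CPM), feedback inhibitors that TGFβ signals induce, the SMAD partner FOXH1 (64.5 and 1.48 CPM) and SKIL (176 and 37.8 CPM), a repressor of SMAD activity. The 3 higher ones were the signal carriers SMAD2 (45.5 and 119 CPM) and SMAD3 (5.27 and 15.7 CPM) and FST, which binds ACTIVIN (36.6 and 123 CPM). Of the 13, 0 were at least 2-fold higher and 7 lower when levels were taken as UMIs per cell. On that scale 177 of all 10223 genes were at least 2-fold higher and 6596 lower. The ligand NODAL and its inhibitors LEFTY1 and LEFTY2 were below the minimum level. NODAL had 101 UMIs at D0 and 1 at D5_dSMADi, a log2 ratio of -6.74 (-12.06 to -4.23). LEFTY2 had 231 and 3 UMIs, a log2 ratio of -6.35 (-8.64 to -4.78), and LEFTY1 was at 7.98 and 0.747 CPM.

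Transcripts of the ID genes were higher at D5_dSMADi in CPM. Of 10 tested BMP genes, 5 (50%) were at least 2-fold higher and 1 (10%) at least 2-fold lower. Over all genes the shares were 8.06% and 16.3%, and the median log2 ratio of the 10 was 1.16. ID3, an inhibitor of basic helix-loop-helix factors and a BMP target (chr1:23557926-23559501), was at 246 CPM (243 to 250) at D0 and 1066 CPM (1059 to 1074) at D5_dSMADi. ID1 was at 106 and 328 CPM, ID2 at 34.5 and 111 CPM, and ID4 at 12.3 and 104 CPM. The pseudoreceptor BAMBI was the member that was 2-fold lower (12.6 and 2.86 CPM). At D10_dSMADi, ID1 stood at 12.1 CPM and ID3 at 33.9 CPM, both below D0, and ID4 at 532 CPM. ID3 had a UMI in 86.4% of D0 cells, 99.2% of D5_dSMADi cells and 22.7% of D10_dSMADi cells. In UMIs per cell the log2 ratio was 0.93 for ID3 and 0.45 for ID1. Of the 10 members, 1 remained at least 2-fold higher, with 2 at least 2-fold lower and a median of -0.03. On that scale 177 of all 10223 genes were at least 2-fold higher and 6596 lower.

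Of 19 tested FGF and ERK genes, 5 (26.3%) were at least 2-fold lower and 4 (21.1%) at least 2-fold higher. The shares over all genes were 16.3% and 8.06%. The 4 higher ones were FGF8, FGFR2, SPRED1 and EGR1. The lower ones included the ERK phosphatase DUSP6 (135 and 11.7 CPM), the ETS factor ETV4 (64.7 and 4.36 CPM) and the feedback inhibitor SPRY4 (36.2 and 2.74 CPM). Not all readouts of the pathway followed, since SPRED1 and EGR1 were higher in CPM. ETV5 was at 30.3 and 25.6 CPM and SPRY2 at 41.3 and 27.8 CPM. In UMIs per cell, 1 was at least 2-fold higher and 12 lower, beside 177 and 6596 of all 10223 genes. The ligand FGF8, made at the anterior edge of the neural plate, was at 1.05 and 13.3 CPM. Of 15 Notch genes, 6 (40%) were at least 2-fold higher and 2 (13.3%) at least 2-fold lower, beside 8.06% and 16.3% of all genes. Of the 15, 5 were at least 2-fold higher and 5 lower when levels were taken as UMIs per cell. HES5, the Notch target of neural progenitors, was at 26.5 CPM at D0 and 170 CPM at D5_dSMADi, and HES4 at 8.17 and 96.4 CPM. The ligands DLL1 (1.87 and 14.1 CPM) and JAG1 (12.6 and 74.2 CPM) were higher, whereas the target HEY2 (17.9 and 1.26 CPM) and the HES family member HES6 (71.0 and 5.22 CPM) were lower. Of 19 Wnt genes, 8 (42.1%) were at least 2-fold higher and 1 (5.26%) lower, again beside 8.06% and 16.3% of all genes. Their median was 0.03. In UMIs per cell, 5 were at least 2-fold higher and 10 lower. WLS (chr1:68098473-68233120), which carries Wnt proteins to the cell surface, was at 6.94 CPM (6.36 to 7.56) at D0 and 366.9 CPM (363 to 371) at D5_dSMADi, a log2 ratio of 5.72 that was the highest in that ranking. The Wnt agonist RSPO2 was at 0.435 and 23.0 CPM, the receptor FZD2 at 40.9 and 163 CPM, and the ligand WNT5B at 4.89 and 63.7 CPM. AXIN2, a general target of Wnt signalling, was at 7.07 and 4.61 CPM.

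**Figure D5:**
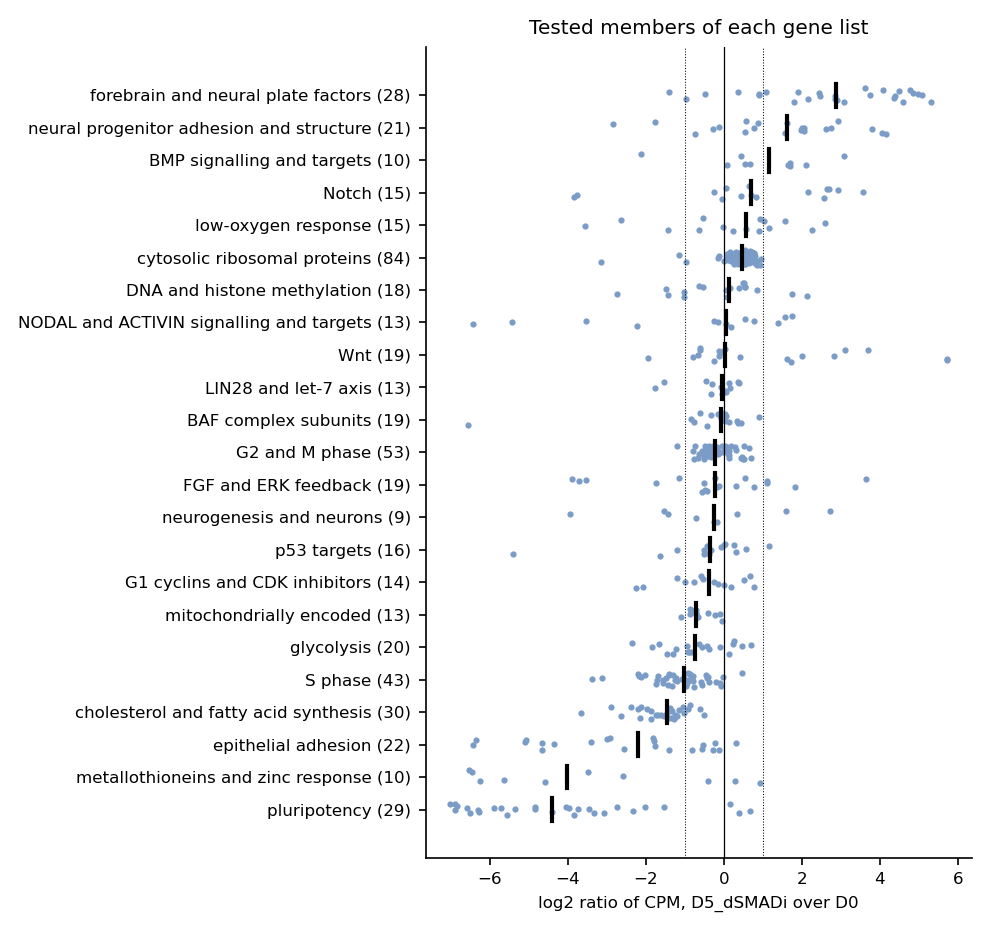
log2 ratio of CPM, D5_dSMADi over D0 (horizontal), of each tested member (points) of the 23 gene lists with at least 5 tested members, with the median of the list as a black bar and the number tested in brackets. Dotted lines mark 2-fold. The medians run from 2.87 for forebrain and neural plate factors to -4.41 for pluripotency.

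Many epithelial adhesion genes were lower at D5_dSMADi. Of 22 tested genes of epithelial adhesion, 15 (68.2%) were at least 2-fold lower and 0 higher, beside 16.3% and 8.06% of all genes. The median log2 ratio of the 22 was -2.20. CDH1 was at 70.5 CPM at D0 and 0.859 CPM at D5_dSMADi, which at 1.22% of D0 was close to the 1.15% of D10_dSMADi. The tight junction protein CLDN7 was at 115 and 1.33 CPM, and EPCAM, an epithelial adhesion molecule, at 261 and 10.2 CPM. The splicing regulator ESRP1 was at 63.0 and 2.47 CPM. Intermediate filament and desmosome genes differed less, with KRT8 at 155 and 132 CPM, KRT19 at 107 and 134 CPM and DSP at 92.8 and 84.6 CPM. Of 21 tested genes of neural progenitor adhesion and structure, 12 (57.1%) were at least 2-fold higher and 2 (9.52%) at least 2-fold lower. The shares over all genes were 8.06% and 16.3%, and the median of the 21 was 1.61. On the scale of UMIs per cell, 6 were at least 2-fold higher and 5 lower, beside 177 and 6596 of all 10223 genes. CDH2 was at 35.7 and 241 CPM, and the intermediate filament genes VIM and NES at 151 and 598 CPM and at 113 and 347 CPM. EPHA4, an ephrin receptor, was at 8.63 and 155 CPM. PROM1, an apical membrane protein, was lower (25.7 and 7.57 CPM). CDH1 had a UMI in 50.0% of D0 cells and 1.11% of D5_dSMADi cells, and CDH2 in 29.1% and 86.9%. CD24, a surface glycoprotein, was at 1883 CPM at D0 and 225 CPM at D5_dSMADi.

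Among metabolic genes, those of sterol synthesis were lower as a set. All 30 genes of cholesterol and fatty acid synthesis were below their D0 level, with a median log2 ratio of -1.45. Of them, 26 (86.7%, beside 16.3% of all genes) were at least 2-fold lower. The enzyme HMGCS1 (171 and 38.6 CPM) belonged to these, as did the sterol sensor INSIG1 (37.9 and 5.12 CPM). The regulators SREBF1 and SREBF2 were at 17.8 and 7.32 CPM and at 33.9 and 23.98 CPM. Of 20 glycolysis genes, 6 (30%, beside 16.3% of all genes) were at least 2-fold lower and 0 higher in CPM. In UMIs per cell 16 were at least 2-fold lower, as were 6596 of all 10223 genes. The 6 included HK1 (77.3 and 15.2 CPM), the glucose transporter SLC2A3 (195 and 54.8 CPM) and LDHB (1889 and 811 CPM). SLC2A1, another glucose transporter, was at 51.5 and 83.2 CPM. Low-oxygen response genes went in both directions, with 5 of 15 (33.3%, beside 8.06% of all genes) at least 2-fold higher, such as EGLN3 (24.4 and 148 CPM) and P4HA1 (38.4 and 184 CPM), and 3 (20%, near the 16.3% of all genes) at least 2-fold lower, such as AK4 (148 and 12.6 CPM) and ADM (32.3 and 5.18 CPM). In that list 2 were at least 2-fold higher and 6 lower when levels were taken as UMIs per cell.

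Metallothioneins, small proteins that bind zinc and copper, were lower, MT1X by less than 2-fold. Of 10 tested genes of the metallothionein and zinc list, 7 (70%) were at least 2-fold lower and 0 higher, beside 16.3% and 8.06% of all genes. The median log2 ratio of the 10 was -4.03. With the D0 limits for both days, SLC30A1 passed 2-fold as higher. It also did without ribosomal protein and mitochondrially encoded genes in the total, and with a scale by the median of ratios. MT1G was at 381 CPM (377 to 385) at D0 and 4.10 CPM (3.67 to 4.56) at D5_dSMADi, MT1H at 97.3 and 1.11 CPM, and MT2A at 1394 and 57.9 CPM. MT1X was at 111 and 83.1 CPM. At D10_dSMADi, MT1G stood at 4.09 CPM, 1.07% of D0, against 1.08% at D5_dSMADi. The zinc exporter SLC30A1 was at 20.4 and 38.8 CPM and the metal-responsive factor MTF1 at 9.27 and 11.4 CPM. The MT1 genes are near-identical copies on chromosome 16, so reads could be split between them in ways the counts do not show. The 250 bases before the start of MT1H, MT2A and MT1X are shown because these genes lie in 1 cluster and differ in response. Capitals mark the core of the metal-response element, searched as TGCACNC and TGCGCNC on both strands. The sequences are from RefSeq (GRCh38.p14), on the plus strand at chr16:56669564-56669813, chr16:56608334-56608583 and chr16:56682220-56682469.
MT1H: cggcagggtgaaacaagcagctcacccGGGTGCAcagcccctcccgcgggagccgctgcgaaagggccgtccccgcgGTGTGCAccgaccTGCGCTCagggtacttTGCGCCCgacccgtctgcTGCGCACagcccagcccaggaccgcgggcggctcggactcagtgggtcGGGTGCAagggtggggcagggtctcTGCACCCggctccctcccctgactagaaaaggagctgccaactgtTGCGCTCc
MT2A: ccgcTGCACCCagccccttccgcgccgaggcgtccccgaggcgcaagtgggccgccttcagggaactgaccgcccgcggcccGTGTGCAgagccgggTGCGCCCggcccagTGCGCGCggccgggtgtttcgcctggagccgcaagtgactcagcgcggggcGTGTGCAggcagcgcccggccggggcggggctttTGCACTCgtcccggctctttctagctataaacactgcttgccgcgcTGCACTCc
MT1X: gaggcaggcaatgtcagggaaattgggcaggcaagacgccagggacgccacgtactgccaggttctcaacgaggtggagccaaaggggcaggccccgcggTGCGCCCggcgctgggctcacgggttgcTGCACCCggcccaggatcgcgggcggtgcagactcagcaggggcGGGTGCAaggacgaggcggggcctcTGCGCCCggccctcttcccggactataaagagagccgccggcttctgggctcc
These windows held 8 matches in MT1H, 7 in MT2A and 4 in MT1X. Among windows of the same length before 27305 genes, 24.7% held at least 1 match and 1.56% at least 3. Before the 8190 tested genes in the table the shares were 34.0% and 2.47%. SLC30A1 held 1 match and MTF1 held 0. The genes with log2 ratios of -6.46 (MT1H) and -4.59 (MT2A) and the gene with -0.42 (MT1X) thus all carried several matches. Promoters of 5 of the 10 list members were found in the table.

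Transcripts of the translation machinery took a larger part of the D5_dSMADi UMIs. Cytosolic ribosomal protein genes made up 23.1% of UMIs at D0 and 32.7% at D5_dSMADi, and 24.3% at D10_dSMADi. Of 84 tested members, 0 were at least 2-fold higher and 2 (2.38%) at least 2-fold lower, beside 8.06% and 16.3% of all genes. The 2 were RPL22L1 (634 and 71.1 CPM) and RPL39L (131 and 58.8 CPM), both paralogues of other ribosomal protein genes. The median of the list was 0.48, and 79 members were above 0. With ribosomal protein and mitochondrially encoded genes left out of the total, 6 were higher and 1 lower, and with a scale by the median of ratios 2 were higher. In UMIs per cell the direction turned, with 15 at least 2-fold lower and a median of -0.71. Of all 10223 genes, 6596 were at least 2-fold lower on that scale, and their median was -1.29. Mitochondrially encoded genes made up 2.94% of UMIs at D0 and 1.89% at D5_dSMADi. Of the 13, 1 (7.69%, beside 16.3% of all genes) was at least 2-fold lower, MT-ATP6 (3227 and 1507 CPM). None passed 2-fold in CPM without ribosomal protein and mitochondrially encoded genes in the total, and all 13 did in UMIs per cell. D0 cells were kept at a higher UMI limit, and with the D5_dSMADi limits for both days the median mitochondrial share per cell at D0 was 2.69%, compared with 2.81% under its own limits and 1.79% at D5_dSMADi.

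Relative to all UMIs, genes of DNA replication were lower and most genes of mitosis were within 2-fold. Of 43 S phase genes, 22 (51.2%) were at least 2-fold lower and 0 higher, beside 16.3% and 8.06% of all genes. The median log2 ratio of the 43 was -1.01. MCM5 and MCM4, subunits of the replicative helicase, were at 92.6 and 20.3 CPM and at 160 and 39.3 CPM, and the sliding clamp PCNA at 149 and 56.1 CPM. Of 53 G2 and M phase genes, 1 (1.89%, beside 16.3% of all genes) was at least 2-fold lower, HMMR (132 and 57.6 CPM). The median of the 53 was -0.23, with 35 members below 0. With the D0 limits for both days HMMR was within 2-fold at -0.87, while 1 other member was at least 2-fold higher. In UMIs per cell, where 6596 of all 10223 genes were at least 2-fold lower, so were 42 of the 43 S phase genes and 44 of the 53 G2 and M phase genes. TOP2A, a topoisomerase of dividing cells, was at 438 and 459 CPM, UBE2C at 266 and 266 CPM, NUSAP1 at 178 and 191 CPM, HMGB2 at 376 and 610 CPM, and MKI67 at 190 and 137 CPM. Of 14 G1 cyclins, kinases and inhibitors, 3 (21.4%, beside 16.3% of all genes) were at least 2-fold lower, E2F1 (25.5 and 5.37 CPM), CCNE1 (48.7 and 11.5 CPM) and CDK6 (14.2 and 6.16 CPM), and 10 were in UMIs per cell. At 10000 UMIs per cell, at least 2 of 6 dividing markers were found in 99.6% of D0 cells and 72.3% of D5_dSMADi cells. PCNA had a UMI in 76.6% and 36.8%, and MKI67 in 70.2% and 35.3%. Of 16 p53 targets, 3 (18.8%) were at least 2-fold lower in CPM, near the 16.3% of all genes. In UMIs per cell 12 were, beside the 6596 of all 10223 genes on that scale. Among the 3 was PMAIP1, a pro-apoptotic BH3 protein (223 and 5.25 CPM). TP53INP1 was at least 2-fold higher in CPM (3.78 and 8.42 CPM), which turned to -0.028 on the log2 scale in UMIs per cell.

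When each day was clustered alone, replication or mitosis genes led 5 of the 8 clusters. D0 cells fell into 3 clusters. One of 289 cells (28.6%) was led by TOP2A, CENPE and AURKA and is called dividing-like. The others held 555 cells led by histone and replication genes such as HIST1H1D, DTL and MCM6, and 165 cells led by GAPDH, MYL9 and PLTP. D5_dSMADi cells fell into 5 clusters. The largest held 1136 cells (46.9%) and was led by genes that included IGFBP5 and NRIP3, and 565 cells were led by HIST1H4C, CLSPN and DTL. A cluster of 372 cells led by UBE2C, PLK1 and CDK1 is called dividing-like. The remaining clusters held 260 cells led by CA4, SERPINF1 and WFIKKN1 with a median of 21085 UMIs, and 90 cells led by PTTG1 and UBE2S. At the finer resolution of 0.6, a D5_dSMADi cluster of 176 cells was led by TAGLN, ANKRD1 and NPPB, and 15.3% of its cells had a doublet score over 0.25, compared with 2.81% of all D5_dSMADi cells.

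In CPM, most chromatin regulators were within 2-fold of their D0 level. On the scale of UMIs per cell, 10 of 18 genes of DNA and histone methylation and 15 of 19 BAF subunits were at least 2-fold lower, and 0 were higher. Of all 10223 genes, 6596 were at least 2-fold lower on that scale and 177 higher. In CPM, 16.3% of all genes were at least 2-fold lower and 8.06% higher. Of 18 genes of DNA and histone methylation, 5 (27.8%) were at least 2-fold lower and 2 (11.1%) at least 2-fold higher. Beside DNMT3B, these were JARID2, a cofactor of Polycomb complex 2 (220 and 78.7 CPM), UHRF1, DNMT3A and DNMT1 on the lower side, and BMI1 (4.49 and 19.5 CPM) and TET2 (3.06 and 10.3 CPM) on the higher. DNMT3A and DNMT1 had log2 ratios of -1.02 and -1.01. The lower count was 3 in place of 5 with the D0 limits for both days, with CPM without ribosomal protein and mitochondrially encoded genes, and with a scale by the median of ratios. Of 19 BAF complex subunits, 1 (5.26%, beside 16.3% of all genes) was at least 2-fold lower, BCL11A (40.0 and 0.423 CPM). The ATPase SMARCA4 was at 155 and 151 CPM.

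Genes of other lineages were near absent at both days. Of the lists for mesendoderm and mesoderm, definitive endoderm, trophectoderm and amnion, and neural crest and placode, 2 genes in all reached the minimum level. They were KDR (29.1 CPM at D0 and 1.53 CPM at D5_dSMADi) and CXCR4 (0.764 and 12.1 CPM), both receptors that are also found outside these lineages. Shorter marker sets of the same lineages, of 5 mesendoderm, 4 endoderm, 6 amnion or trophectoderm and 4 neural crest genes, were counted in single cells. At 10000 UMIs, 0 of 2423 D5_dSMADi cells had a UMI of at least 2 markers of any of these sets, which allows a share of cells with such UMIs of up to 0.124%. For the 1009 D0 cells it was also 0, which allows up to 0.297%. The summed level of each set was under 3 CPM at both days, so these counts do not limit the share of cells that express the genes at a low level. Of 2 further genes, BST2 (tetherin) was at 106 CPM at D0 and 285 CPM at D5_dSMADi, and TNNT1, a troponin, at 123 and 202 CPM.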

How the data were processed

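Each pooled culture was tagged with its own oligonucleotide, and gene UMIs were counted per cell barcode. The authors made the deposited count matrices with Cell Ranger on GRCh38. The labels name version 3.1 and the file headers 6.1.2, and the strand setting of the counting is not given in the sources used here. The values were raw UMI counts, and the conditions carry no replicate. The 12 multiplexing tag rows stayed out of gene totals.

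Groups were taken from the labels. UMIs were summed over kept cells, scaled to CPM, and compared as log2 ratios for genes with a mean CPM of at least 5. A gene was counted as higher or lower past 2-fold. Intervals at the 95% level were exact Poisson for CPM, exact binomial for ratios of UMIs and Clopper-Pearson for shares, and a share of 0 was bounded by 3 counts. Thinning to 10000 UMIs was seeded. Cells of each day were clustered apart (scanpy 1.11.5, 2000 variable genes, 30 components, 20 neighbours, Leiden resolution 0.3). Scores of Scrublet with an expected rate of 6% exceeded 0.25 in 17 D0 cells (1.68%) and 68 D5_dSMADi cells (2.81%), and its automatic threshold marked 8 and 9. These cells were kept. The calculations were tested on simulated data.

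Members and gene lists were chosen with earlier results of these data known, partly from a prior analysis. Genes were named by 3 rules. These took the up to 4 members of each list with the highest and the lowest ratios, the 15 highest and 15 lowest ratios among genes reaching 50 CPM, and a set of lineage and cluster genes. DLK1, DNMT1, DPPA4, EPCAM, ESRP1, ETV5, FZD2, HMGCS1, JAG1, LDHB, MCM4, MIR302CHG, MT-ATP6, NES, PCNA, SMARCA4, SPRY2, SREBF1, USP44, VIM and the leading genes of clusters were named after their values were seen. Positions are from GENCODE 44. Of the 219 genes given positions, 24 overlap another counted gene on the same strand and 104 on the other, so their counts can share reads. Other cell limits, doublet removal, scales, minimum levels, thinning depths and clustering resolutions were tried as alternatives. Restricting cells by tag share and counting UMIs per cell were added after the data were seen. Conditions of later days outside this pool were not analysed here. Results on some genes are not reported here.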

Additional observations from a re-analysis of the deposited data

Results flagged for a closer look

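Counts of the multiplexing tags lay outside the comparison. In 32 of the 1009 kept D0 cells (3.17%) and 99 of the 2423 kept D5_dSMADi cells (4.09%), the assigned tag held under 90% of the tag UMIs, while its median share was 96.4% and 95.3%. In the 32 D0 cells, IGFBP5 stood at 92.4 CPM against 8.50 CPM in the other D0 cells, HES5 at 135 against 23.1 CPM, NR2F2 at 40.7 against 5.09 CPM, and POU5F1 at 1054 against 1250 CPM. Leaving such cells out gave 842 genes at least 2-fold higher and 1683 at least 2-fold lower. Each condition was 1 culture of the pooled library, so no sample could be compared with others of its group.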

How the results depend on the processing

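No paired analysis was possible because each condition was 1 culture of the same pooled library and the comparison comes from no test. Of 134 named genes past 2-fold, all that could be compared kept their direction under the other cell limits, scalings, doublet removal, tag restriction and thinning, except in UMIs per cell, where 129 did. On that scale FGFR2 (-0.069), KDM3A (-0.030), SOX3 (-0.11), SPRED1 (-0.067) and TP53INP1 (-0.028) turned from higher to lower, and 177 genes were at least 2-fold higher and 6596 lower, with 3 forebrain and neural plate factors lower. This scale moves every log2 ratio by 1.18, and CPM without ribosomal protein and mitochondrially encoded genes by 0.18. The shift of 1.18 depends on the cell limits, and whether the small reversals above hold under equal limits was not tested. With no minimum but more than 3 UMIs in either condition, 22590 genes were compared, 3746 higher and 5780 lower. Under it, BMP genes went from 5 to 13 higher and from 1 to 2 lower. Wnt genes went from 8 to 16 higher and from 1 to 6 lower. At a mean of at least 50 CPM, 3031 were compared, 156 higher and 390 lower, with 15 pluripotency genes lower, and 7 forebrain and neural plate factors higher and 0 lower. The share of genes called changed with the minimum level, as well as the number compared. With the D0 limits for both days, 2 forebrain and neural plate factors were lower, and the cause was not tested. Requiring 2 UMIs of each gene set placed 11.99% of D0 cells and 61.9% of D5_dSMADi cells in both. Other settings gave 818 to 1162 higher and 1330 to 1733 lower genes. Complexity limits of 0.85 and 0.78 were not run, since they left 1 of 1009 D0 cells and 2419 of 2423 D5_dSMADi cells. Genes of a few UMIs, such as NODAL, are limited by counting error.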
